A study of Mus musculus with 49 samples.

Results

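The first days of serum-transferred arthritis were examined in whole ankles, by setting the 3 arrays of ankles taken on day 3 after the first serum injection against the 4 arrays of ankles taken on day 0. These 7 arrays were picked by tissue and day from a series of 49, which also covers later ankles, cells washed from synovial fluid and peripheral blood leukocytes. All mice were male, 6 weeks old and of the B6 background. Day 3 ankles came from recipients of K/BxN serum, and the labels count day 0 on the same scale of days after injection, so that day 0 served as the starting point and no group given serum without the autoantibodies was used here. Each ankle was processed as a whole organ of mixed cells. Sample descriptions name an SDS/urea extraction, the general extraction field names Trizol, and the descriptions give 2 rounds of amplification by in vitro transcription before labelling. The labels do not say whether arrays of 1 day came from separate animals, so the p-values reflect only how these samples scatter, and that scatter may be technical.

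K/BxN mice develop arthritis spontaneously, and their serum carries autoantibodies to the glycolytic enzyme glucose-6-phosphate isomerase. Transferred into healthy mice, these antibodies form immune complexes that engage complement and Fc receptors in the joint and draw in neutrophils and monocytes, while synovial fibroblasts respond with chemokines and matrix-degrading enzymes. In whole tissue, more cells of a type and more RNA per cell cannot be told apart.

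Among the genes that passed the test on day 3, the largest differences were those of Saa3, a serum amyloid A protein made outside the liver in inflamed tissue, of the monocyte-attracting chemokines Ccl2 and Ccl7, of the myeloid lectin Clec4d and of the matrix-degrading enzyme Mmp3. Across 8251 genes, 19 passed the limma test at a Benjamini-Hochberg adjusted p of 0.05, which is 0.23% of the genes tested. Of these, 15 were higher on day 3 (0.182%) and 4 were lower (0.0485%). The median difference over all genes was -0.0079 on the log2 scale, and 711 genes had an unadjusted p below 0.05. All 19 genes had day 3 arrays that did not overlap the day 0 arrays, a property that 233 genes showed with day 3 higher (2.82%) and 335 with day 3 lower (4.06%).

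Promoter sequence is shown for 3 of the risen genes, chosen for their named roles in acute-phase, matrix and metal responses. Each window is the 250 bases before the transcript start in RefSeq's GRCm38.p6 annotation, written 5′ to 3′ along the gene's strand. Capitals mark a match on either strand to TTGCNNAA (the C/EBP core) in Saa3, to TTGCNNAA or TGANTCA (the AP-1 core) in Mmp3, and to TGCNCNC (a broad form of the metal response element) in Mt2. The windows are chr7:46715677-46715926 on the minus strand for Saa3, chr9:7445572-7445821 on the plus strand for Mmp3 and chr8:94172368-94172617 on the plus strand for Mt2.
Saa3: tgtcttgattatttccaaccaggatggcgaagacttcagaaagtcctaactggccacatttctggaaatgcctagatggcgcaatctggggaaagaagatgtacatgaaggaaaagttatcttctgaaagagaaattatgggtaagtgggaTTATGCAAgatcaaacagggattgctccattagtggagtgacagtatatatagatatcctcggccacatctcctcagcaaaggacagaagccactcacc
Mmp3: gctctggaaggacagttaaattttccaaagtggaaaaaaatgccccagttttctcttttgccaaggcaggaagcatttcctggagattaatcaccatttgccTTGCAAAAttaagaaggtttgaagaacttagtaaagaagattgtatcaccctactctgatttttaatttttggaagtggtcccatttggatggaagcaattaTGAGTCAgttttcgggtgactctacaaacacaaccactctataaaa
Mt2: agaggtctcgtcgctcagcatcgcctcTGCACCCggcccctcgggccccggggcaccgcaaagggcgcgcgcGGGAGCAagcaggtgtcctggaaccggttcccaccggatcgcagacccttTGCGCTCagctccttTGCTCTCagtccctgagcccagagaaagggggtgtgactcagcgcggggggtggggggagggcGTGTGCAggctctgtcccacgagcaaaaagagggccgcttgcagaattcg
A window was found for 15 of the 19 changed genes, and Ccl2, Ccl7, Msr1 and Ptp4a3 had no entry. TTGCNNAA was present in 5 of these 15 windows, in Saa3, Mmp3, Mt2, Slpi and Hspb8, and in 9.56% of 32851 mouse windows of that length. TGANTCA was present in 2 of 15, in Mmp3 and Mt2, against 6.75% of all windows. The Mt2 matches to TTGCNNAA and TGANTCA are left in lower case above. TGCNCNC was present in 5 of 15, with 5 matches in Mt2 alone, against 44.41% of all windows. No changed gene's window held the NF-κB core searched for (3 G, then 3 free letters, then TTCC), found in 4.65% of all windows. A match describes these letters and does not show that a factor binds there.

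Values are log2 of RMA intensities. A level is called above background where the group mean exceeds 6.85, the 95th percentile of 34 control probe sets for antisense, bacterial and yeast sequences. In both ankle groups 4842 of the 8251 genes (58.7%) lay below it. A fold is given only where both groups lie above that level. Where only day 3 does, the fold against the background level is a lower bound.

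The tissue label held against markers of joint tissue. Fibroblast collagen Col1a1 was between 11.01 and 12.57 on day 0 and between 11.70 and 12.08 on day 3. The muscle actin Acta1 and the osteoclast protease Ctsk were above background on all 7 arrays. In both groups 5 of 6 measured fibroblast markers, 4 of 5 muscle markers and 2 of 3 bone markers were above background. Pdgfrb, Myh4 and Ibsp were not. Of the 4 measured chondrocyte markers, Col9a1 and Chad were above background in both groups, while the defining cartilage collagen Col2a1 was not (means 5.14 and 5.24). None of the 4 measured T cell markers and none of the 4 keratinocyte markers was above background in either group.

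Day 0 replicate 1 carried liver transcripts. Alb, the hepatocyte's albumin, read 8.95 on that array and between 4.49 and 5.19 on the other 6. Apoa1, an apolipoprotein, read 8.98 there against 5.54 to 6.21 elsewhere, and the protease inhibitor gene Serpina1b read 10.04 against 5.53 to 6.02. The summed intensity of the 32 measured liver genes was 13809 on that array, against 3850 to 5569 on the other day 0 arrays and 4427 to 5374 on day 3. None of the 32 passed the test, and the median of their differences was -0.35. Outside these 7 arrays, Alb read 6.39, 8.41 and 10.65 on replicate 1 of ankle days 1, 7 and 12. Those arrays were part of the fit over all ankle arrays, and the day 1 and day 7 arrays are used again below. Without day 0 replicate 1, 16 of the 19 changed genes still passed. The median probe set intensity ranged from 58.6 to 62.7 over the 7 arrays. The 3′ over 5′ log2 ratio of the beta-actin control, a gauge of RNA length, was 3.50 on day 0 replicate 1. It was 2.90, 2.81 and 2.73 on day 0 replicates 2, 3 and 4, and 3.53, 3.60 and 3.25 on the day 3 arrays. Apart from day 0 replicate 1, every day 0 array thus lay below every day 3 array. The ratio and the day can therefore not be fully told apart. Over all genes, arrays of day 0 correlated at 0.93 to 0.992, arrays of day 3 at 0.967 to 0.985 and arrays of different days at 0.949 to 0.983. For day 0 replicate 2, the description begins with D02, which could be read as day 2. Its title and time label both give day 0, and the array was kept in that group. Whether this ankle was taken on a later day was not tested.

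**Figure D1:**
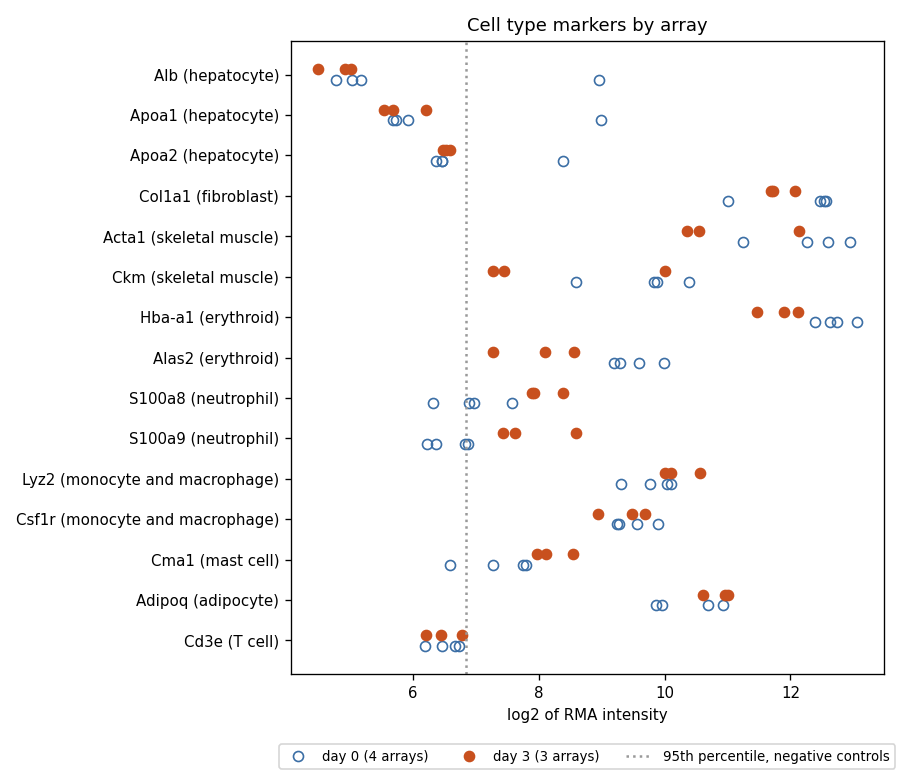
Log2 intensity of 15 cell type markers on each day 0 array (open blue, 4 arrays) and each day 3 array (filled orange, 3 arrays), with the 95th percentile of the negative controls as a dotted line. Alb, Apoa1 and Apoa2 are high on 1 day 0 array, and Acta1 and Ckm vary by array on both days.

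Single arrays weighed on how many genes passed. In 13 of the 15 risen genes, replicate 1 was the highest of the day 3 arrays, and in 11 of 15 replicate 2 was the highest of the day 0 arrays. Leaving out 1 of the 7 arrays at a time gave between 6 and 43 genes: 6 without day 3 replicate 1, 9 without day 0 replicate 3 and 43 without day 0 replicate 2. Saa3, Ccl2, Ccl7, Clec4d, Mmp3 and Fcgr2b passed in each of these 7 fits, and the other 13 genes lost the call in at least 1. When the beta-actin ratio was added as a covariate, the same 6 genes passed and the other 13 did not. In 12 of those 13 the difference with the covariate was 85.8% to 106.7% of that without it, and in Hspb8 it went from -1.04 to -0.68.

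**Figure D2:**
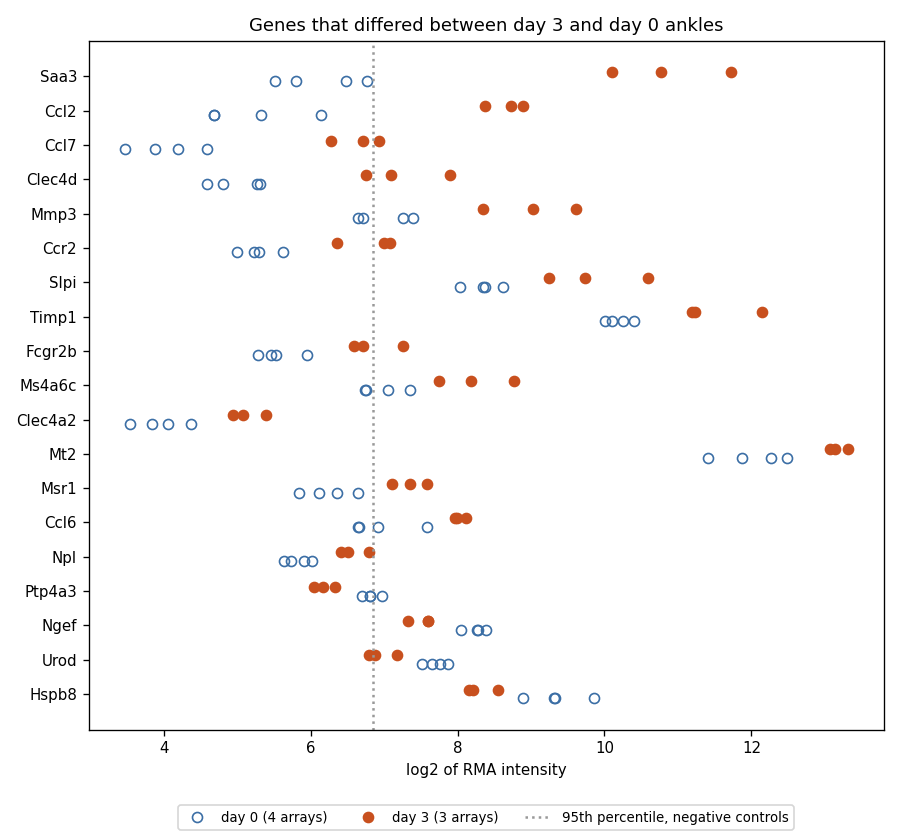
Log2 intensity of the 19 genes that passed the test, on each day 0 array (open blue, 4 arrays) and each day 3 array (filled orange, 3 arrays), with the negative-control level dotted. The groups do not overlap for any of the 19, and the gap is widest for Saa3.

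Among secreted acute-phase and inducible proteins, 2 of 17 measured genes rose, Saa3 and Timp1, and none fell. The median difference of the 17 was 0.71, and 13 were positive. Saa3 read 5.81, 6.77, 5.52 and 6.48 on the day 0 arrays and 11.72, 10.10 and 10.77 on the day 3 arrays. Every day 3 array was thus far above every day 0 array, and no day 0 array passed background. The means were 6.14 ± 0.58 (SD, n = 4) and 10.86 ± 0.81 (SD, n = 3), a difference of 4.72 (SE 0.35, adjusted p = 9.1e-07, limma) and a rise of at least 16.2-fold. Saa2, an acute-phase serum amyloid A best known from the liver, read 7.42 to 8.11 on day 0 and 8.09 to 8.77 on day 3, with a difference of 0.83 and an adjusted p of 0.125. Ptx3, a pentraxin that binds microbes and damaged cells, differed by 0.85 (adjusted p = 0.125) but stayed below background, with means of 3.45 and 4.30. Neither passed.

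CC chemokines recruit mostly monocytes and lymphocytes, and of the 14 measured 3 rose and none fell. Their median difference was 0.17, with 11 positive. Ccl2, the main ligand of the monocyte receptor Ccr2, read 4.68, 6.14, 4.69 and 5.32 on day 0 and 8.89, 8.73 and 8.37 on day 3. The day 3 arrays lay close together and well above the day 0 arrays, none of which was above background. The difference was 3.45 (SE 0.38, adjusted p = 9.84e-05), a rise of at least 3.51-fold. Ccl7, a second Ccr2 ligand, read 3.47, 4.59, 3.88 and 4.19 on day 0 and 6.71, 6.94 and 6.27 on day 3. Its difference was 2.60 (SE 0.26, adjusted p = 4.57e-05), although the day 3 mean of 6.64 was still below the background level, so no fold is given. Ccl6, a chemokine of myeloid cells, read 6.66, 7.59, 6.65 and 6.92 on day 0 and 8.11, 7.96 and 8.0 on day 3, 2.10-fold higher (difference 1.07, SE 0.19, adjusted p = 0.017). Day 0 replicate 2 lay nearest to day 3 for Ccl2, Ccl7 and Ccl6. Ccl9, another myeloid chemokine, read 7.3 to 8.20 on day 0 and 8.07 to 8.96 on day 3, so that the groups overlapped (difference 1.15, adjusted p = 0.0944). Ccl8, a ligand of several monocyte receptors, differed by 1.21 with no overlap (adjusted p = 0.395). Neither Ccl9 nor Ccl8 passed.

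None of the 11 measured CXC and CX3C chemokines passed, with a median difference of 0.14 and 6 positive. The ligands of the neutrophil receptor Cxcr2 are among them. Cxcl1 read 6.07, 5.82, 4.79 and 7.35 on day 0 and 8.32, 7.88 and 7.25 on day 3. Day 0 replicate 4 exceeded the lowest day 3 array, and the difference of 1.81 (SE 0.47) had an adjusted p of 0.131. Cxcl2 read 3.56 to 4.26 on day 0 and 4.42 to 5.07 on day 3, without overlap but below background on all 7 arrays (difference 0.93, adjusted p = 0.131). Cxcl5, likewise below background, differed by 0.75 (adjusted p = 0.742). The receptor Cxcr2 itself lay between 3.68 and 4.20 on all 7 arrays, below background, with a difference of 0.02 (SE 0.11).

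Among 25 measured receptors for chemokines and other attractants, 1 rose. Ccr2, which lets monocytes leave the bone marrow and follow Ccl2 and Ccl7, read 5.0, 5.62, 5.22 and 5.30 on day 0 and 7.00, 6.36 and 7.09 on day 3. The difference was 1.53 (SE 0.26, adjusted p = 0.0121), with a day 3 mean of 6.81 just below background. Its call was lost in 3 of the 7 fits that left out an array, with an adjusted p of 0.117 without day 3 replicate 1. The median difference of the 25 receptors was 0.04. The decoy receptors Ackr4 and Ackr2, which clear chemokines, differed by -0.46 and -0.42 (adjusted p = 0.458 and 0.467).

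Lectin and pattern receptors of myeloid cells had 2 of 8 measured genes higher, and all 8 differences were positive, with a median of 0.44. Clec4d, a C-type lectin that signals through the Fc receptor gamma chain, read 4.81, 5.26, 4.59 and 5.32 on day 0 and 7.90, 6.75 and 7.09 on day 3. Here day 3 replicate 1 was the highest, and all 3 exceeded every day 0 array. The difference was 2.25 (SE 0.30, adjusted p = 0.00109), at least 1.32-fold. Clec4a2, an inhibitory lectin of dendritic cells and monocytes, differed by 1.18 (SE 0.18, adjusted p = 0.00586), with means of 3.95 and 5.14 that both lay below background. Pirb, an inhibitory receptor for class I molecules, and Tlr6, a receptor for bacterial lipopeptides, differed by 0.57 and 0.39 and did not pass.

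Receptors for the constant part of immunoglobulin G, through which the transferred antibodies act, had 1 of 8 measured genes higher and a median of 0.07. Fcgr2b, the inhibitory member, read 5.28, 5.96, 5.53 and 5.46 on day 0 and 7.26, 6.59 and 6.71 on day 3. The difference was 1.3 (SE 0.18, adjusted p = 0.00235), while the day 3 mean of 6.85 only reached background. Its probe set is of a type that can be shared by several transcripts of a family. The activating receptor Fcgr1 read 5.95 to 6.21 on day 0 and 6.55 to 7.1 on day 3, a difference of 0.63 that did not pass (adjusted p = 0.123). Fcer1g, the signalling gamma chain, differed by 0.46 (adjusted p = 0.53). The neonatal receptor Fcgrt, which prolongs the life of immunoglobulin G, differed by -0.28 (adjusted p = 0.758).

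In the list of monocyte and macrophage genes 2 of 24 measured genes rose, Ccr2 and Msr1, with a median of 0.11. Msr1, a scavenger receptor that takes up modified lipoproteins, read 6.12, 6.64, 5.84 and 6.36 on day 0 and 7.59, 7.11 and 7.36 on day 3, at least 1.42-fold higher (difference 1.11, SE 0.18, adjusted p = 0.00866). A second, dimmer probe set for Msr1 differed by 0.08. Mpeg1, a pore-forming protein of macrophages, differed by 0.77 (adjusted p = 0.11). The macrophage markers other than Msr1 did not pass. Csf1r, the receptor for the macrophage growth factor, differed by -0.13, Cd68 by 0.07 and Lyz2 by 0.42. Cd14 differed by 0.07 and Adgre1 by 0.23. For Mrc1 the difference of 1.17 was larger than that of Msr1, but its arrays overlapped (adjusted p = 0.345). Its mean was 6.26 on day 0, below background, and 7.42 on day 3, above it. The summed intensity of the 7 macrophage markers was 2344 to 3384 on day 0 and 2770 to 3877 on day 3, so the ranges overlapped. Ms4a6c, a membrane protein of myeloid cells, rose 2.39-fold (difference 1.25, SE 0.24, adjusted p = 0.0373), from a probe set of the kind that can bind related transcripts. Npl, an enzyme that breaks down sialic acid, differed by 0.75 (SE 0.15, adjusted p = 0.0458), with both means below background. With the replicate number as a block, Ms4a6c and Npl had adjusted p-values of 0.0541 and 0.0611. Arg1, the arginine-degrading enzyme of some macrophages, is named after its values were seen: it read 6.49 on day 0 replicate 1, 4.13 to 4.26 on the other day 0 arrays and 7.99, 7.28 and 6.11 on day 3 (difference 2.34, SE 0.60, adjusted p = 0.131). Day 0 replicate 1 is the array that carried liver transcripts, and their part in its Arg1 value was not tested.

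Of 26 measured neutrophil genes, Clec4d alone passed, and the median was 0.12. S100a8 and S100a9, which together form the abundant calcium-binding protein calprotectin of neutrophils and monocytes, were higher on all 3 day 3 arrays than on any day 0 array without passing. S100a8 read 6.98, 7.58, 6.33 and 6.89 on day 0 and 8.38, 7.93 and 7.90 on day 3 (difference 1.12, adjusted p = 0.113). S100a9 read 6.22, 6.87, 6.36 and 6.83, then 8.60, 7.43 and 7.62 (difference 1.31, adjusted p = 0.0881). The granule proteins of maturing neutrophils Ltf, Ngp and Camp differed by -0.15, -0.20 and -0.06, and Ltf and Ngp were below background in both groups. Summed over the 8 neutrophil markers, intensity was 778 to 858 on day 0 and 1050 to 1451 on day 3, without overlap. That sum includes Clec4d, which passed on these same arrays. Of its markers only Clec4d, S100a8 and S100a9 were themselves without overlap. Besides Ltf, Ngp and Camp, the others were Mmp8 (difference 0.07, adjusted p = 0.988) and Csf3r (difference 0.22, adjusted p = 0.924). The 3 mast cell markers summed to 169 to 314 on day 0 and 360 to 487 on day 3. Cma1, the mast cell chymase, differed by 0.86 (adjusted p = 0.475) and did not pass. The other mast cell markers, Cpa3 and Mcpt4, differed by 0.33 and 0.14, with overlapping arrays and means below background in both groups. How far changes in cell composition accounted for the other differences was not tested.

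Among 29 measured matrix proteases and their inhibitors, 2 rose, and the median was 0.07. Mmp3, stromelysin 1, which cleaves proteoglycans and activates other proteases and is made by synovial fibroblasts, read 6.65, 7.4, 7.26 and 6.72 on day 0 and 9.61, 8.35 and 9.03 on day 3. All 3 day 3 arrays were higher, with replicate 1 the highest. The means of 7.01 ± 0.38 (SD, n = 4) and 9.0 ± 0.63 (SD, n = 3) differed 3.98-fold (difference 1.99, SE 0.29, adjusted p = 0.00262). Timp1, an inhibitor of these proteases, read 10.25, 10.10, 10.01 and 10.40 on day 0 and 12.15, 11.24 and 11.19 on day 3, 2.52-fold higher (difference 1.34, SE 0.24, adjusted p = 0.0205). Timp1 was called in 5 of the 7 fits that left out an array, with an adjusted p of 0.136 without day 3 replicate 1. Adam8, a membrane protease of leukocytes, read 5.97 to 6.30 and then 6.79 to 7.03 (difference 0.78, adjusted p = 0.0595) and did not pass. Slpi, an inhibitor of neutrophil elastase and other serine proteases, read 8.62, 8.03, 8.34 and 8.37 on day 0 and 10.60, 9.25 and 9.73 on day 3, 2.87-fold higher (difference 1.52, SE 0.26, adjusted p = 0.0121). The 3 other probe sets for Slpi, all dimmer, differed by 0.17, 0.35 and 2.70, and the dimmer probe set for Timp1 by 0.19.

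Metallothioneins bind zinc and copper and are induced by metals, glucocorticoids and inflammatory cytokines. Mt2 read 11.41, 12.26, 11.87 and 12.48 on day 0 and 13.31, 13.07 and 13.13 on day 3, 2.24-fold higher (difference 1.17, SE 0.23, adjusted p = 0.0387). The day 3 arrays spanned a narrower range than the day 0 arrays. Without day 3 replicate 1 the adjusted p was 0.189. Mt1 read 9.69, 11.01, 9.80 and 10.40 on day 0 and 11.19, 11.80 and 11.13 on day 3, without overlap, and did not pass (difference 1.15, adjusted p = 0.131). Of the 27 measured antioxidant and metal-binding genes Mt2 alone passed, and the median was 0.05.

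Cytokine genes and their feedback inhibitors gave no call. In the list of TNF and interleukin 6 type signalling 0 of 23 passed, with a median of 0.17 and 19 positive. Tnfaip6, a hyaluronan-binding protein induced by TNF, differed by 1.04 (adjusted p = 0.0893) but read at most 3.85 on any array. Socs3, the feedback inhibitor of interleukin 6 signalling, read 6.34, 7.47, 5.92 and 7.41 on day 0 and 7.83, 9.07 and 7.87 on day 3 (difference 1.47, SE 0.37, adjusted p = 0.129). Replicate 2 was the highest array for Socs3 on both days. Il6 itself differed by 0.56 below background (adjusted p = 0.287). Of 12 measured interleukin 1 family genes 0 passed, with 10 positive and a median of 0.18. Il1rn, the antagonist of the interleukin 1 receptor, read 4.80 to 5.35 and then 6.13 to 6.77 (difference 1.37, adjusted p = 0.0881). For the decoy receptor Il1r2 the difference was 1.08 (adjusted p = 0.326). The cytokine Il1b stayed below background, with a difference of 0.36 (adjusted p = 0.857).

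The 4 genes that fell were Hspb8, Urod, Ngef and Ptp4a3. Hspb8, a small heat shock protein of muscle and other tissues, read 8.90, 9.32, 9.31 and 9.86 on day 0 and 8.21, 8.15 and 8.55 on day 3, 2.06-fold lower (difference -1.04, SE 0.21, adjusted p = 0.0446). Urod, an enzyme of heme synthesis, read 7.66, 7.51, 7.88 and 7.76 on day 0 and 6.79, 7.18 and 6.88 on day 3, 1.68-fold lower (adjusted p = 0.0132). Each day 3 array was lower than each day 0 array for both genes. Ngef was 1.66-fold lower (difference -0.73, SE 0.14, adjusted p = 0.0387). Ptp4a3, a protein phosphatase, differed by -0.64 (SE 0.12, adjusted p = 0.0205), with means of 6.82 and 6.18 below background. A second probe set differed by -0.29 for Hspb8 and by 0.16 for Urod, so the second Urod probe set did not show the fall. With the replicate number as a block, Hspb8 and Ngef each had an adjusted p of 0.0541.

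No gene of the erythroid, muscle or fat lists passed. Alas2, which starts heme synthesis in erythroid cells, read 9.30, 9.60, 9.20 and 9.996 on day 0 and 8.56, 8.09 and 7.28 on day 3, without overlap (difference -1.54, SE 0.36, adjusted p = 0.0977). Hba-a1, alpha globin, read 12.38 to 13.05 and then 11.48 to 12.12 (difference -0.87, adjusted p = 0.34). Summed over both erythroid markers measured, intensity was 5970 to 9530 on day 0 and 3005 to 4737 on day 3, and what part blood or marrow in the dissected ankle had in the fall of Urod was not tested. Over the 12 measured erythroid genes, of which 0 passed, 7 differences were negative and 5 positive, with a median of -0.02. Of 35 skeletal muscle genes 0 passed, 28 differences were negative and the median was -0.37. Muscle transcripts varied by array: Acta1, skeletal alpha actin, read 11.25, 12.26, 12.94 and 12.60 on day 0 and 10.36, 10.54 and 12.13 on day 3, so that day 3 replicate 3 lay among the day 0 arrays. Ckmt2, a mitochondrial creatine kinase, differed by -1.79 (SE 0.76, adjusted p = 0.527). The muscle list summed to 16026 to 36905 on day 0 and 9030 to 28801 on day 3, and its part in the fall of Hspb8 was not tested. Among 21 adipocyte genes 0 passed, with 16 negative and a median of -0.30, and their summed intensity on day 3 (9579 to 12008) lay within the range of day 0 (8428 to 13617). Adipoq, the fat cell hormone adiponectin, differed by 0.50 (adjusted p = 0.898). Thrsp, a regulator of fat synthesis, read 8.79 to 9.83 and then 8.11 to 8.65 (difference -1.05, adjusted p = 0.48).

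Sign counts of 3 further lists without a call are set beside the whole table, in which 48.3% of genes had a positive difference. Only 16 of 34 proliferation genes, 7 of 14 class II genes and 6 of 14 clock genes had a group mean above background. The signs of the others rest on values below it. Of 34 proliferation genes 31 differences were positive, with a median of 0.27 against -0.0079 for all genes, and 0 passed. Top2a, the topoisomerase of dividing cells, read 4.99 to 5.29 on day 0 and 5.65 to 6.38 on day 3, below background (difference 0.89, adjusted p = 0.135). Stmn1, a microtubule regulator, read 7.83 to 8.66 and then 8.84 to 9.39, 1.71-fold higher without passing (adjusted p = 0.185). Ccnb2, a mitotic cyclin, differed by 0.62 (adjusted p = 0.225) and Mcm2, of the replication helicase, by 0.42 (adjusted p = 0.287). For 14 genes of antigen presentation by MHC class II the median was 0.33, with 11 positive and 0 passing. The class II chain H2-Aa read 8.80 to 9.36 on day 0 and 10.37, 9.54 and 9.36 on day 3 (difference 0.66, adjusted p = 0.549). In the clock list 0 of 14 passed, with 4 positive and a median of -0.11, and Nr1d1, a repressor in the clock's feedback loop, differed by -1.23 (adjusted p = 0.301). The labels used here do not give the hour at which tissue was taken.

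Structural genes of the joint showed no call at this time. None of 35 collagen and matrix genes passed (median -0.05), none of 17 cartilage genes (median -0.02), none of 22 bone and osteoclast genes (median -0.01) and none of 20 synovial fibroblast genes (median 0.20). Pdpn, a surface protein of synovial lining fibroblasts, differed by 0.48 below background (adjusted p = 0.123), and Col15a1, a basement membrane collagen, by -0.58 (adjusted p = 0.131). Complement genes, of which 19 were measured, had a median of -0.01 and 0 passing, and 28 interferon response genes a median of 0.13 and 0 passing. Among 34 adhesion and endothelial genes 0 passed. Lyve1, a hyaluronan receptor of lymphatic vessels and some macrophages, had the lowest difference of that list (-1.41, adjusted p = 0.131), with day 0 at 6.74 to 8.69 and day 3 at 5.91 to 7.06. In all, 9 of 38 lists held a gene that passed and 29 held none.

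**Figure D3:**
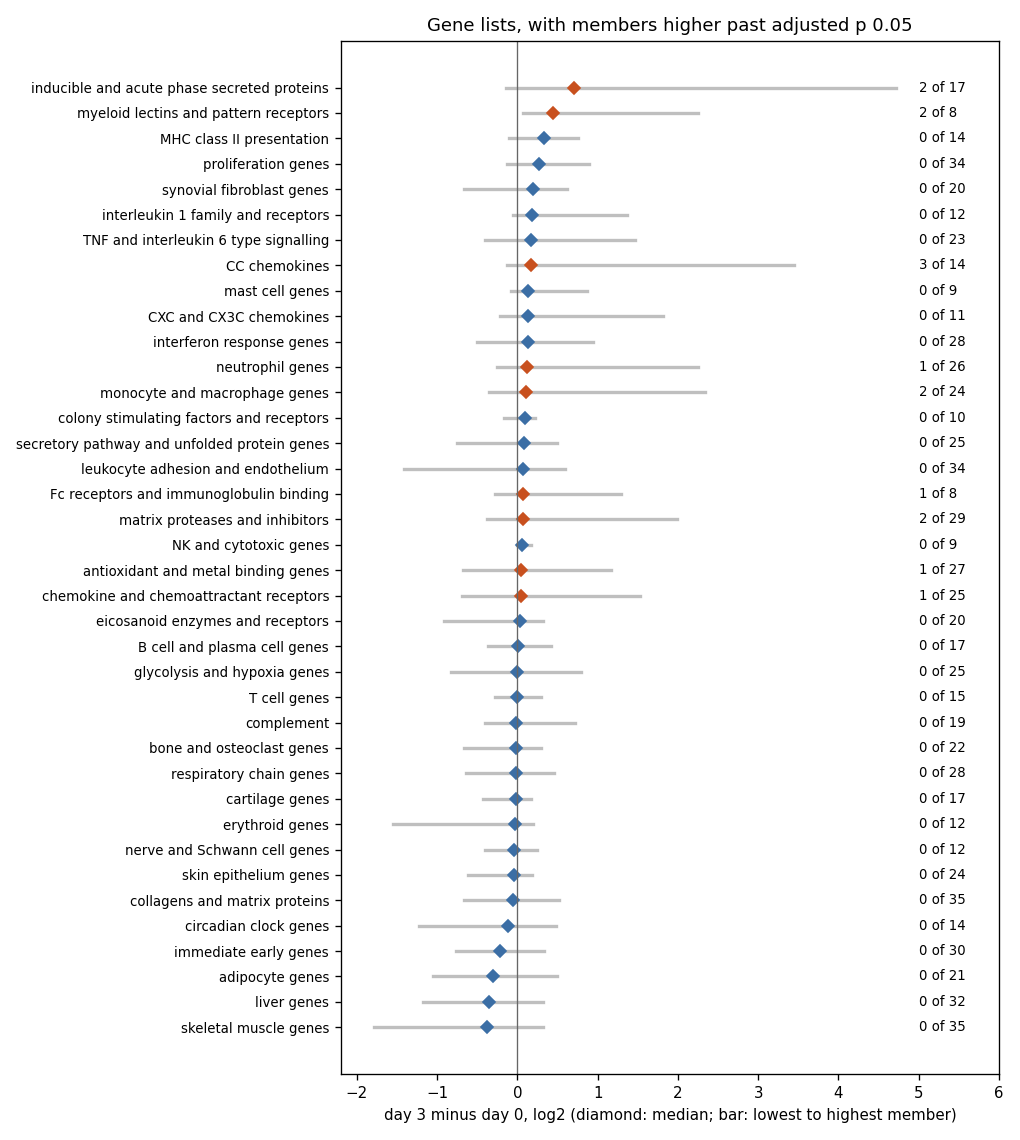
Day 3 minus day 0 differences (log2) for 38 gene lists, with the median as a diamond, the lowest to highest member as a bar and, at the right, how many measured members were higher past the adjusted p. The acute-phase list has the highest median and the skeletal muscle list the lowest, and 29 lists have no call.

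Ranked by size among genes whose arrays did not overlap and with at least 1 group above background, 9 of the 15 largest rises passed and 1 of the 15 largest falls did. Ccl7, Ccr2 and Clec4a2, below background in both groups, were left out of this ranking. The rises that did not pass included Chl1, a neural cell adhesion molecule, which read 5.47 to 6.11 on day 0 and 9.02, 7.33 and 6.84 on day 3 (difference 1.91, SE 0.46, adjusted p = 0.113). Replicate 1 was again the highest of the day 3 arrays. Mcoln2, a lysosomal cation channel, read 5.58 to 5.82 on day 0 and 7.37, 6.73 and 6.81 on day 3 (difference 1.22, SE 0.25, adjusted p = 0.0533). It passed with the replicate number as a block (adjusted p = 0.0313). Cd52, a surface glycoprotein of leukocytes, read 6.31 to 6.81 and then 8.55, 7.52 and 7.18 (difference 1.21, adjusted p = 0.0606). After Alas2, the largest falls were those of S100a3, a calcium-binding protein of hair follicles (difference -1.15, adjusted p = 0.361), Ctsf, a lysosomal protease (-1.09, adjusted p = 0.216), Ckb, brain-type creatine kinase (-1.09, adjusted p = 0.125) and Aqp1, a water channel of red cells and endothelium (-1.08, adjusted p = 0.133). On day 0, S100a3 read 9.39 on replicate 4 and 7.22 to 7.87 on the others. Ckb too passed with the replicate block (adjusted p = 0.0374). Cirbp, a cold-inducible RNA-binding protein, read 7.81 to 8.52 and then 7.01 to 7.5 (difference -0.94, adjusted p = 0.071).

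The 2 ankle arrays of day 1 placed the changed genes between both times. All 15 risen genes had a day 1 mean between those of day 0 and day 3, and in 12 of them both day 1 arrays exceeded every day 0 array. Saa3 read 8.07 and 7.94 on day 1, 39.4% of the way in log2 units from day 0 to day 3. Ccl2 read 7.73 and 6.78, 59.3% of the way. For Fcgr2b, at 6.59 and 6.52, the share was 77.1%, and for Ccr2, at 5.68 and 5.76, it was 28.5%. All 4 fallen genes also had a day 1 mean between the others, and Ptp4a3, at 6.41 and 6.14, had gone 85.7% of the way. These counts and shares use the same day 0 and day 3 arrays that selected the genes and are descriptions. The day 1 counts were not made over all genes, so how common such a placing is was not measured.

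Between day 3 and day 7, in ankles, 42 genes passed (0.509%), of which 29 were higher on day 7 (0.351%) and 13 lower (0.158%). This comparison uses the same day 3 arrays. Of the 15 genes risen by day 3, 3 were higher still on day 7: Mmp3 by 1.73 (SE 0.29, adjusted p = 0.00644), Slpi by 1.36 (SE 0.26, adjusted p = 0.0189) and Timp1 by 1.2 (SE 0.24, adjusted p = 0.0303). None of the 15 passed in the other direction, and none of the 4 fallen genes passed. Ccl2 differed by -0.41 from day 3 to day 7 and Ccl7 by -0.25, and their day 18 means were 7.14 and 5.20. Saa3 differed by 1.04 (adjusted p = 0.453), with a day 7 mean of 11.90 ± 0.52 (SD, n = 4). S100a8 and S100a9 passed here, by 1.82 and 1.87 (adjusted p = 0.00234 and 0.00481), as did Top2a by 1.15 (adjusted p = 0.0338). Named after their values were seen, the collagenase Mmp13 (2.76, adjusted p = 0.000169) and the gelatinase Mmp9 (3.48, adjusted p = 4.77e-07) were higher on day 7 than on day 3, after differences of 0.57 and 0.29 between day 0 and day 3 that did not pass. The count of 42 was 12 without day 3 replicate 2 and 23 without day 7 replicate 2.

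**Figure D4:**
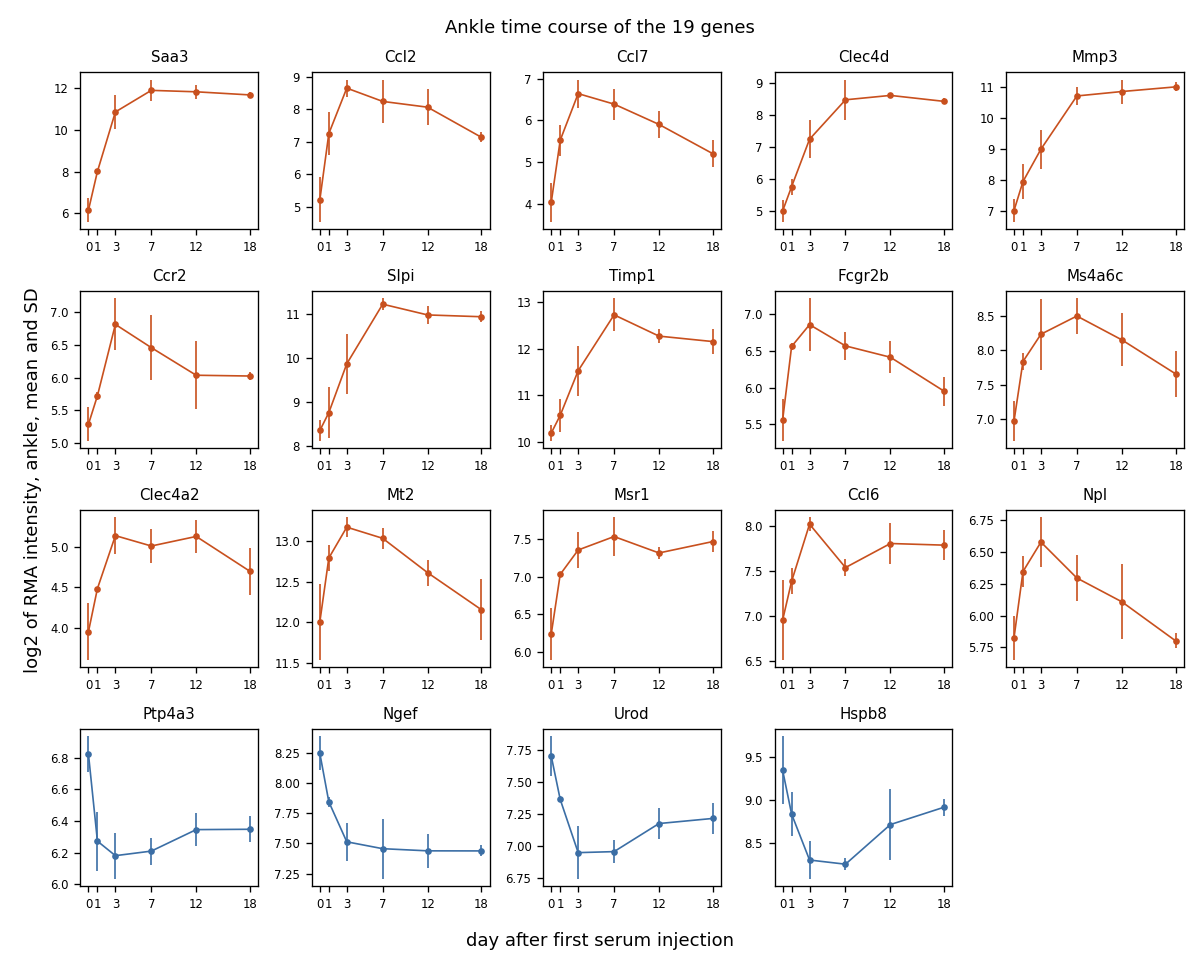
Mean and SD of log2 intensity in ankles on days 0, 1, 3, 7, 12 and 18 after the first serum injection (4, 2, 3, 4, 3 and 3 arrays) for the 15 risen genes (orange) and 4 fallen genes (blue), each panel on its own scale. Mmp3, Slpi and Timp1 continue upward from day 3 to day 7. Ccl2, Ccl7, Ccr2, Fcgr2b, Clec4a2, Mt2, Ccl6 and Npl have their highest mean on day 3, the day on which genes were selected. No fall from day 3 to day 7 passed among them.

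In peripheral blood leukocytes the same days gave no call: limma passed 0 of 8251 genes (0%) between 3 day 3 and 3 day 0 arrays, with 1702 at an unadjusted p below 0.05. Blood was lysed of red cells and extracted with Trizol, while the ankle labels name both SDS/urea and Trizol. Without blood day 3 replicate 1, 1101 genes passed, so the count of 0 rests on that array. Among the 19 ankle genes the largest blood difference in size was 0.675, for Hspb8. The blood differences of Saa3, Ccl2 and Ccl7 were 0.28 (SE 0.22), 0.02 (SE 0.22) and 0.01 (SE 0.17). Ccl2 read 4.09 to 4.45 in blood on day 0 and 4.23 to 4.25 on day 3, all below background. Blood means of Saa3 (4.50 and 4.78), Ccl7 (3.47 and 3.49) and Fcgr2b (6.45 and 6.17) were below it on both days as well. Changes at such levels are compressed.

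The ankle and blood differences were compared directly by an interaction contrast, which uses the same ankle arrays. In all, 11 genes passed (0.133%), 8 with the ankle difference higher (0.097%) and 3 with it lower (0.0364%). With the replicate number as a block 20 passed. Leaving out 1 array moved the count to 47 (ankle day 0 replicate 2), 33 (blood day 3 replicate 1), 21 (ankle day 0 replicate 1), 17 (ankle day 3 replicate 2) or 7 (ankle day 3 replicate 1, blood day 3 replicate 2 or blood day 0 replicate 3). Of the 15 risen genes 6 were among them: Saa3 (4.44, SE 0.45, adjusted p = 7.92e-07), Ccl7 (2.59, adjusted p = 6.51e-05), Ccl2 (3.44, adjusted p = 0.000164), Fcgr2b (1.57, adjusted p = 0.00595), Clec4d (2.88, adjusted p = 0.0114) and Ccl6 (1.40, adjusted p = 0.0114). Of the 4 fallen genes, Hspb8 (-1.72, adjusted p = 0.00625) and Ngef (-1.08, adjusted p = 0.0114) passed. The other 3, of which Prc1 and Bmp6 are named after their values were seen, were Mcoln2 (1.55, adjusted p = 0.0324), Prc1, a protein of the mitotic spindle (1.00, adjusted p = 0.0324), and Bmp6, a bone morphogenetic protein (-1.14, adjusted p = 0.00595). Means of Bmp6 lay below background in both tissues on both days, and the Prc1 mean exceeded it only in ankle on day 3. For Mmp3 the difference between tissues was 1.61 (SE 0.37, adjusted p = 0.112) and for Ccr2 1.41 (SE 0.42, adjusted p = 0.19), and neither passed.

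**Figure D5:**
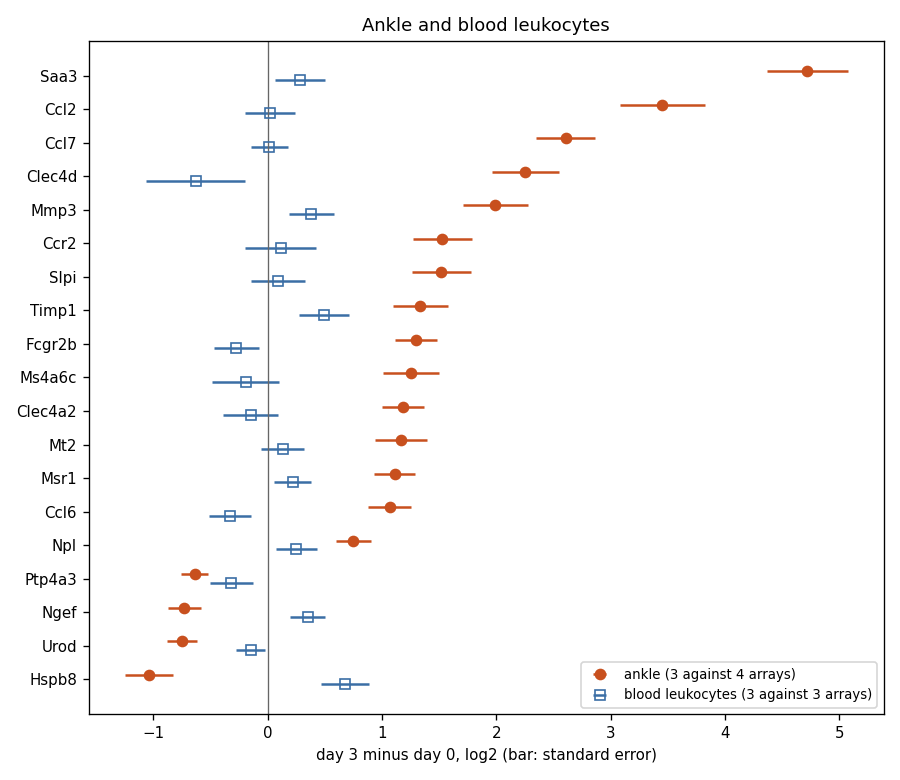
Day 3 minus day 0 difference (log2) with its standard error for the 19 genes in ankle (orange circles, 3 against 4 arrays) and in blood leukocytes (open blue squares, 3 against 3 arrays). Ankle differences run from -1.04 to 4.72, and no blood difference exceeds 0.675 in size.

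Levels in the 3 synovial fluid samples of day 3 are given beside the ankle without a test, since the fluid cells were prepared differently and no fluid of day 0 was used here. Of the 15 risen genes 13 were above background in fluid cells, and 11 had a fluid mean above the day 3 ankle mean. Ccl2 read 10.56, 10.64 and 11.40 in fluid, Clec4d 10.85, 11.40 and 11.68, and Msr1 9.46, 9.64 and 9.77. Those genes were thus higher in the fluid samples than on any ankle array of day 3. Saa3 read 8.02, 8.51 and 8.32 in fluid, below its ankle values, and Mmp3 read 5.61, 5.90 and 5.29, below background. Mt2 read 11.28, 10.99 and 11.63 in fluid, also below the ankle. In blood on day 0, 6 of the 15 were above background, among them Slpi with a mean of 9.65, Ms4a6c with 9.68 and Clec4d with 8.32. The fluid and blood counts were not made over all genes, so they do not set the risen genes apart from other genes.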

How the data were processed

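Whole-ankle RNA was hybridised to Affymetrix mouse arrays. Values are intensities on a linear scale that the authors obtained with RMA, named without a version in the submitters' processing notes. RMA corrects background, equalises the arrays' distributions and summarises probes, which compresses low values. The deposited table held 12488 probe sets for 49 arrays. Log2 was taken. Gene names came from GEO's platform annotation: 10833 probe sets had 1 symbol, 396 several and 1259 none or were controls. The probe set with the highest mean over all 49 arrays stood for a gene, leaving 8251 genes. An array gives no read depth, and the number of arrays limits precision.

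Limma 3.58.1 in R 4.3.3 fitted 1 mean per day over all 19 ankle arrays (blood: 17; the interaction: both), with an intensity trend and Benjamini-Hochberg adjustment over all genes at 0.05. The computation was tested on simulated data. Same-numbered arrays deviated together: correlations of deviations were 0.541, 0.486 and 0.199 between ankle days 0 and 3, 0.722, 0.555 and 0.655 between days 3 and 7, and 0.458, 0.445 and 0.167 in blood. The replicate block was therefore run as the paired alternative.

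The groups compared, gene lists and markers were chosen with earlier results of these data known. Genes are named if they passed on day 3 against day 0, if they were among the 15 largest rises or falls without overlap and above background in 1 group, if they had 1 of the 4 smallest p-values of a described list, or as Cxcr2, its ligands, liver genes or markers. Promoter windows are from RefSeq, GRCm38.p6. Alternatives changed the arrays in the fit, normalization, low values, probe sets, variance model, weights and covariates.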

Additional observations from a re-analysis of the deposited data

Results flagged for a closer look

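On day 0, 2 values stood apart from the other 3 arrays by Dixon's criterion at its 95% critical value, looked at in 40 genes, where chance gives about 1 in 20. Alb read 8.95 on replicate 1 against 4.79 to 5.19; it was looked at because that level was already known, so the criterion adds no evidence there. In turn, Mcoln2 read 5.58 on replicate 3 against 5.79 to 5.82.

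The change from day 0 to day 3 differed between ankle and blood leukocytes, by limma's interaction contrast, in 11 genes. The ankle change minus the blood change was 4.44 for Saa3, 3.44 for Ccl2, 2.88 for Clec4d, 2.59 for Ccl7, 1.57 for Fcgr2b, 1.55 for Mcoln2, 1.40 for Ccl6 and 1.00 for Prc1. It was -1.72 for Hspb8, -1.14 for Bmp6 and -1.08 for Ngef. The ankle means of Saa3, Ccl2, Ccl7, Clec4d, Fcgr2b, Mcoln2, Prc1 and Bmp6 on day 0 lay below the negative-control level. Ccl7 and Bmp6 lay below it on both days in both tissues.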

How the results depend on the processing

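For day 3 against day 0 in ankle, 19 genes passed. The count was 6 with only the 7 compared arrays in the fit, 31 with quantile normalization anew, 526 with array weights, 6 once the beta-actin ratio entered as a covariate, 48 without the 4 ankle arrays that carried liver transcripts and 39 without day 0 replicates 1 and 2. Leaving out 1 array at a time gave 6 to 43. The replicate block gave 21, of which 15 were among the 19. Saa3, Ccl2 and Clec4d passed under each alternative run, and Ccl7 under each that tested it, since it is below background in both groups and was not among the genes kept above it; Mmp3 and Fcgr2b failed only with the compared arrays alone (adjusted p = 0.0617 and 0.103). For day 7 against day 3, with 42, the counts were 15 with the compared arrays alone, 20 with a floor at the 20th percentile, 131 with array weights and 12 to 44 leaving out 1 array, the lowest without day 3 replicate 2 and 23 without day 7 replicate 2; the replicate block gave 55. In blood, 0 became 3948 with array weights and 0 to 1101 leaving out 1 array, the highest without day 3 replicate 1. For ankle against blood, with 11, the counts were 4 with the compared arrays alone, 2945 with array weights, 20 with the replicate block and 7 to 47 leaving out 1 array, the lowest without ankle day 3 replicate 1 and the highest without ankle day 0 replicate 2. The cause was not tested. None of the 19 genes changed direction under these alternatives. The block ended the calls of Ms4a6c, Npl, Hspb8 and Ngef, added Mcoln2 and Ckb, and changed no other call among the named genes. Below the negative-control level, sizes of change are compressed and folds are bounds at best.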
